A study of Mus musculus with 4 samples.

Results

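The genes described here are 37 members of the apoptosis machinery, out of 55450 genes in the count tables: BCL2 family genes, caspases and their platform, proteins released from mitochondria, inhibitors of apoptosis, death receptor genes and the p53 core. They were taken by symbol from the deposited gene lists, and all 37 were found. The series measured dissociated mouse testis by droplet single-cell RNA sequencing with 3' chemistry, in which each captured transcript carries a unique molecular identifier (UMI). High-fat feeding (HFD) and a normal diet (ND) were represented by 2 libraries each, called HFD 1, HFD 2, ND 1 and ND 2. The labels used here give neither strain, age, length of feeding nor diet composition for either group, and do not say whether each library came from a separate mouse, so p-values measure the spread between these libraries.

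Apoptosis removes many germ cells in the normal testis. In the mitochondrial route, BH3-only proteins engage the survival members of the BCL2 family and free the effectors BAX and BAK to open the outer mitochondrial membrane. Cytochrome c then leaves the mitochondrion and assembles APAF1 and caspase-9 into the apoptosome, while DIABLO, HTRA2, ENDOG and AIFM1 leave with it. Inhibitors of apoptosis restrain caspases, death receptors start a parallel route through FADD and caspase-8, and p53 raises the transcription of several BH3-only genes, of Mdm2 and of Cdkn1a.

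The libraries held 143748262 to 154221188 UMIs and 13122 to 14467 kept cells, and any pair of libraries shared 34 to 59 cell barcodes. Cells were grouped by marker genes into 7 germ-cell classes and 5 somatic classes, each written with "-like" because its name rests on markers. The members took no part in forming the clusters. The germ-cell classes, in stage order, held 216 spermatogonia-like, 790 early spermatocyte-like, 10631 pachytene spermatocyte-like, 6531 late spermatocyte-like, 10167 round spermatid-like, 6040 elongating spermatid-like and 2321 condensing spermatid-like cells. Between 24.6% and 29.0% of the kept cells of a library stayed unnamed, mostly in shallow clusters, and are in no class. RNA of mature germ cells was present in every class: the summed level of 7 elongating spermatid markers was 72100.2 to 86755 per 1000000 UMIs in Sertoli-like cells, 4667 to 8447 in Leydig-like cells and 5954 to 6990 in spermatogonia-like cells. Its part in the members' levels was not tested, so the somatic levels are given beside those of the germ cells.

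Levels are given as UMIs per 1000000 UMIs of the class and library (CPM), as mean ± SD over the 4 libraries. They are shares of a class's RNA and are compared between classes for a single gene only, as a description without a test. In their highest germ-cell class, 27 members had at least 20 UMIs. Of these, 11 were highest in the spermatogonia-like class (Bax, Bok, Bid, Bik, Casp2, Apaf1, Endog, Aifm1, Xiap, Birc6 and Trp53), and 9 of the 11 had every library above every library of the next class. Another 9 were highest in a spermatocyte-like class, namely Pmaip1, Diablo, Htra2 and Birc2 in the early, Bak1, Bcl2l1 and Cflar in the pachytene and Bad and Birc5 in the late class. Pmaip1, Birc2, Bak1, Bcl2l1, Bad and Birc5 had every library above every library of the next class, and Diablo, Htra2 and Cflar did not. The other 7 had their highest mean in spermatid-like cells, with Mdm2 in the round, Mcl1, Bcl2l11, Fas and Cdkn1a in the elongating and Bbc3 and Bcl2l14 in the condensing class. Of these 7, Mcl1, Bcl2l11 and Bcl2l14 had every library above every library of the next class, and the others overlapped it. Fas, at 0.467 CPM, lay below the 2.53 and 0.745 CPM that its absence allows in spermatogonia-like and early spermatocyte-like cells. Its highest class is therefore not settled. The highest level of the remaining 10 (Bcl2, Bcl2l2, Bcl2l10, Bmf, Casp6, Casp8, Casp9, Birc3, Fadd and Tnfrsf1a) rested on fewer than 20 UMIs. A count of 20 UMIs stands for a higher CPM in a shallower class, with 1185753 UMIs in the spermatogonia-like and 54181037 in the elongating class. Casp9, highest in spermatogonia-like cells at 11.7 CPM, fell short of it, whereas Fas passed at 0.467 CPM. The split over stages thus depends in part on depth.

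**Figure D1:**
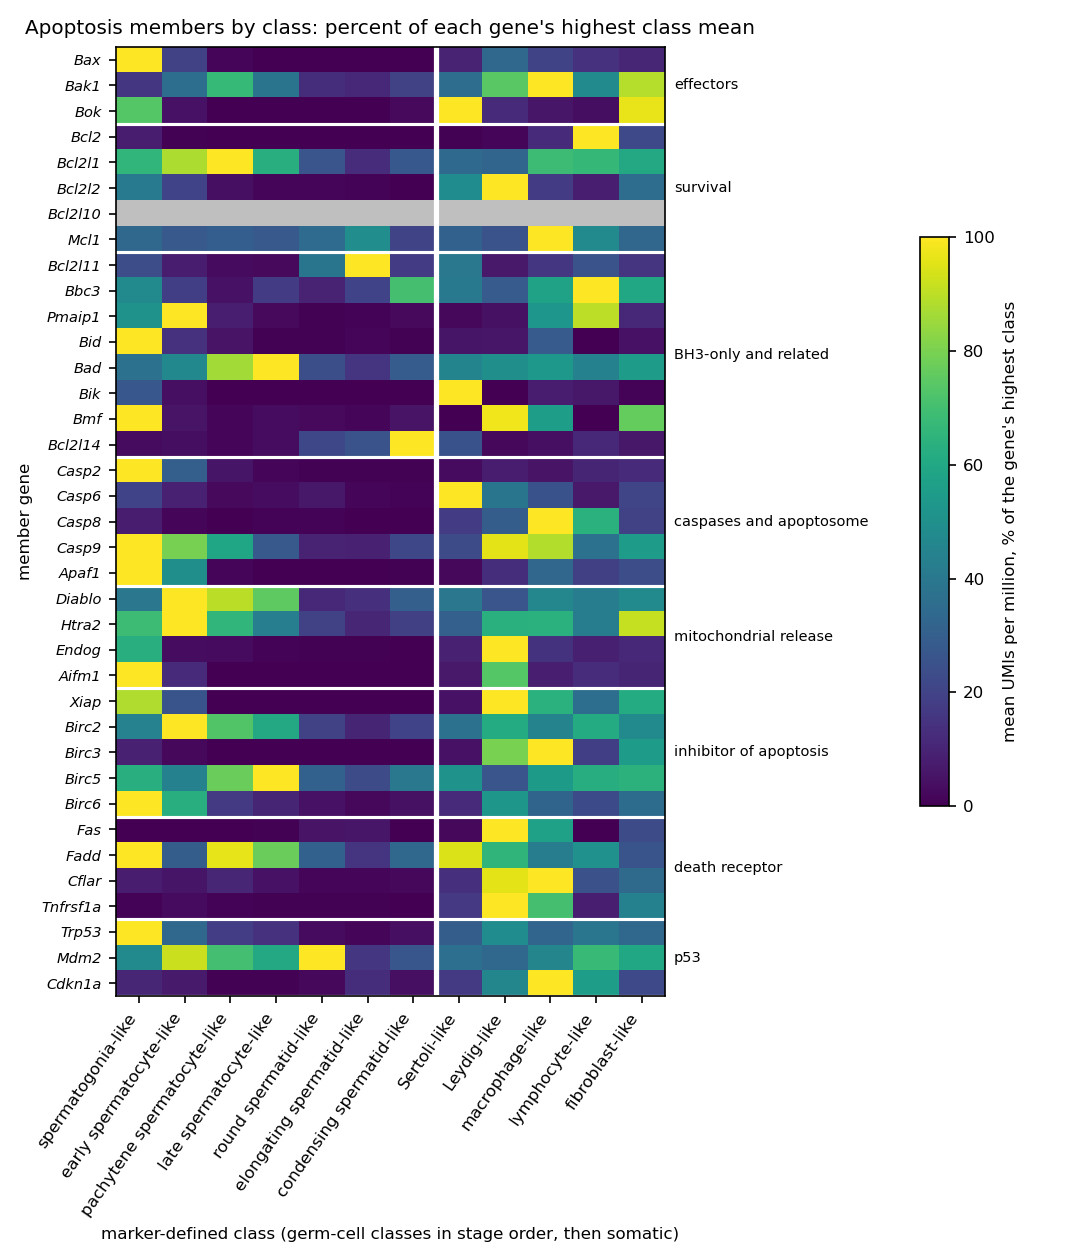
Mean level of each of the 37 members (rows, grouped by role) in 7 germ-cell classes and 5 somatic classes (columns), as a percentage of that gene's highest class mean (colour scale, 0 to 100%); Bcl2l10, with fewer than 20 UMIs in all classes, is grey. Bax, Casp2, Apaf1, Aifm1 and Birc6 are brightest in the spermatogonia-like column, whereas Bcl2l11 and Bcl2l14 are brightest in the elongating and condensing spermatid-like columns.

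Among the effectors, which form the pores in the outer mitochondrial membrane, Bax was highest before meiosis. It measured 219.6 and 298 CPM in HFD 1 and HFD 2 and 319 and 236 CPM in ND 1 and ND 2 in spermatogonia-like cells. The early spermatocyte-like class had 41.4, 47.2, 60.9 and 62.1 CPM in the same order of libraries, and the pachytene class 4.39, 4.75, 5.48 and 5.56 CPM. From the late spermatocyte-like class on, Bax lay between 0.621 and 0.895 CPM as a class mean, and the libraries of neighbouring classes overlapped. The spermatogonia-like mean of 268 ± 47.8 CPM (n = 4) was 53.2 times the pachytene mean of 5.05 ± 0.569 CPM, and no library of one class reached the range of the other. Leydig-like cells carried 90.5 ± 8.94 CPM of Bax. Bak1, the other main effector, had a different profile, with 10.4, 10.9, 10.2 and 10.8 CPM in pachytene cells against 5.87, 6.24, 5.81 and 6.17 in late spermatocyte-like cells and 1.87, 1.96, 2.10 and 2.36 in round spermatid-like cells. Its spermatogonia-like level rested on 3 UMIs in 4 libraries, and its mean in macrophage-like cells was 15.7 CPM. Bok, a relative with less settled function, had 23 UMIs in spermatogonia-like cells (18.8, 11.2, 28.1 and 17.9 CPM in the 4 libraries, mean 19.02 ± 6.97) and 3 to 11 UMIs in each later germ-cell class, all of greater depth. Sertoli-like cells had a Bok mean of 25.9 CPM.

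The survival members, which hold the effectors and BH3-only proteins in check, differed in their course over the stages. Mcl1, a short-lived survival protein, measured 122, 116, 153 and 104 CPM in spermatogonia-like cells, 108, 112, 109 and 109 in pachytene cells, 128, 128, 127 and 129 in round spermatid-like cells and 185, 179, 174 and 178 in elongating spermatid-like cells, in the order HFD 1, HFD 2, ND 1 and ND 2. The elongating class stood above the round class in every library, and the condensing class was lowest at 75.3 ± 9.33 CPM, so the highest class mean was 2.38 times the lowest. Bcl2l1, which encodes BCL-XL, was highest in pachytene cells at 88.5, 89.0, 86.8 and 85.4 CPM. It was 7.96 times lower in elongating spermatid-like cells, at 11.9, 12.3, 9.44 and 10.3 CPM. Bcl2 itself had 6 UMIs in spermatogonia-like cells and 1 to 10 UMIs in each later germ-cell class, against 67.2 ± 22.4 CPM in lymphocyte-like cells. Bcl2l2, which encodes BCL-W, measured 6.27, 7.46, 15.6 and 7.17 CPM in spermatogonia-like and 0.883, 0.699, 1.02 and 1.17 CPM in pachytene cells, and Bcl2l10 had 3 UMIs in all germ-cell classes together.

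In the BH3-only and related group, Bcl2l11, Bcl2l14 and, at a far lower level, Bbc3 had their highest means in spermatid-like classes. For Bbc3 a spermatogonia-like library at 7.17 CPM lay above the condensing mean of 5.19 CPM. Bcl2l11 encodes BIM, a BH3-only protein that binds all the main survival members. It stood at 4.88, 4.27, 5.99 and 7.57 CPM in pachytene cells and 4.78, 3.86, 6.32 and 6.09 CPM in late spermatocyte-like cells. In round spermatid-like cells it measured 82.0, 79.5, 76.1 and 64.0 CPM, and in elongating spermatid-like cells 202, 205, 209.8 and 163 CPM. The elongating mean of 195 ± 21.5 CPM was 37.0 times the late spermatocyte mean of 5.26 ± 1.16 CPM. The clusters of the round class, listed by level, had 12.2 CPM (cluster 17), 38.9 (cluster 14), 87.9 (cluster 15) and 154 (cluster 9). In the elongating class, cluster 8 had 222 CPM beside the class mean of 195 CPM, and the other clusters of that class are not given here. The level stood at 37.4, 28.8, 39.4 and 32.7 CPM in condensing spermatid-like cells.

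Bcl2l14, a BCL2 family gene also called BCL-G, was highest one class later than Bcl2l11. It measured 18.2, 20.6, 22.3 and 22.2 CPM in pachytene cells, 373, 371, 379 and 377 CPM in round and 438, 422, 449 and 447 CPM in elongating spermatid-like cells. The condensing class had 1839, 1619.7, 1728 and 1689 CPM, which was 82.6 times the pachytene mean, and its cluster 24 had a mean of 3805 CPM. Bcl2l14 RNA was also counted in Sertoli-like cells (430.2 ± 60.0 CPM), lymphocyte-like cells (189 ± 34.4), fibroblast-like cells (112 ± 34.5) and Leydig-like cells (39.3 ± 12.8). Its levels in spermatogonia-like (47.7 ± 8.38 CPM) and pachytene cells were at or below most of these somatic levels. Bcl2l11 was lower in Leydig-like cells (13.1 ± 2.15 CPM) than in Sertoli-like cells (77.7 ± 13.6 CPM).

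The 250 bases upstream of the RefSeq start (GRCm38.p6, 5′ to 3′ on the gene's strand) are shown for Bcl2l11, Bcl2l14 and Bax. Among germ cells, Bcl2l11 and Bcl2l14 had their highest levels in spermatid-like cells, and Bax in spermatogonia-like cells. Bcl2l11 and Bcl2l14 were also called lower with the high-fat diet in late spermatocyte-like cells. As given below, both calls were lost with other clusters and with the mix of clusters held fixed. Capitals mark GC boxes (GGGCGG or, on the other strand, CCGCCC). The windows were also searched for the core of the cAMP response element (TGACG or CGTCA), the element read by CREB family factors, and had no match to it. The windows are chr6:134396079-134396328 on the plus strand for Bcl2l14, chr2:128125788-128126037 on the plus strand for Bcl2l11 and chr7:45466899-45467148 on the minus strand for Bax.
Bcl2l14: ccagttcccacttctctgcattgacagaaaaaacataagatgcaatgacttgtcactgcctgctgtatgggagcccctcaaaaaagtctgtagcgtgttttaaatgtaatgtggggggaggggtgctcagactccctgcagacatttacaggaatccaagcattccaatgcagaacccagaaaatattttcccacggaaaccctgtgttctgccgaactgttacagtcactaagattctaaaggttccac
Bcl2l11: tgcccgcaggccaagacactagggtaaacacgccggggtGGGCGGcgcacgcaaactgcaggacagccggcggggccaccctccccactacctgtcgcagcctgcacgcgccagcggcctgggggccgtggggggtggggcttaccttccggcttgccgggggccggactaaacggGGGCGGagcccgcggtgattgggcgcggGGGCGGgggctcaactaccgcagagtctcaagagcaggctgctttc
Bax: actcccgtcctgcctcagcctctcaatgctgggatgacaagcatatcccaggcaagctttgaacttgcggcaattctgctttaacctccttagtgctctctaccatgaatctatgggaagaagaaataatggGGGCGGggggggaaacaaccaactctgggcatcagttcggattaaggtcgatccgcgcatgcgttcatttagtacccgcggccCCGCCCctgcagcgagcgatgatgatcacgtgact
The Bcl2l14 window had no GC box and a G and C content of 45.6%, the Bcl2l11 window 3 GC boxes and 72.0%, and the Bax window 2 GC boxes and 54.0%, against a median of 52.4% over 32851 RefSeq promoter windows. Among all these windows, 32.7% held a GC box and 17.8% the core. A second RefSeq start was listed for Bcl2l14 and for Bcl2l11, with 0 and 2 GC boxes in the window before it. Among the 33 members with a listed promoter, 27 of 46 windows held a GC box and 7 of 46 the core, the latter in Bbc3, Bcl2, Birc2, Bmf, Diablo and Xiap.

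Bad, whose protein links survival signals to BCL-XL, peaked in meiosis. It measured 156, 158, 159 and 157 CPM in pachytene and 180.1, 181, 184 and 185 CPM in late spermatocyte-like cells, then 43.6, 46.0, 44.1 and 41.4 CPM in round spermatid-like cells. Bid, which caspase-8 cleaves to connect the death receptor route to mitochondria, was highest in spermatogonia-like cells (35.2 ± 2.75 CPM, 42 UMIs) and stood at 1.81 ± 0.303 CPM in pachytene cells. Bik had 27.6 ± 5.19 CPM and 0.148 ± 0.0585 CPM in the same classes, and Sertoli-like cells had 101 ± 11.8 CPM. Of the p53 targets, Pmaip1 (NOXA) reached 15.3 ± 1.69 CPM in early spermatocyte-like cells, and Bbc3 (PUMA) 5.19 ± 0.535 CPM in condensing spermatid-like cells. Their means in lymphocyte-like cells were 13.7 and 7.38 CPM. Bmf had at most 18 UMIs in any germ-cell class.

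Among the caspases and the apoptosome, Apaf1 and Casp2 had far lower means in pachytene than in early spermatocyte-like cells, whereas Casp9 overlapped between these classes. Apaf1, the scaffold of the apoptosome, had 3, 2, 10 and 8 UMIs in spermatogonia-like cells of HFD 1, HFD 2, ND 1 and ND 2, which gave 9.41, 7.46, 31.3 and 28.7 CPM. It was at 9.53 ± 2.85 CPM in early spermatocyte-like and 0.27 ± 0.0908 CPM in pachytene cells. Casp2, an initiator caspase activated after DNA damage, measured 50.2, 29.8, 31.3 and 10.7 CPM in spermatogonia-like, 7.30, 11.1, 14.0 and 4.37 in early spermatocyte-like and 1.47, 1.30, 1.82 and 2.10 CPM in pachytene cells. Casp9, the caspase of the apoptosome, was spread more evenly over meiosis, with 15.7, 3.73, 9.38 and 17.9 CPM in spermatogonia-like, 10.9, 10.0, 4.68 and 11.4 in early spermatocyte-like, 7.02, 6.77, 7.26 and 6.43 in pachytene and 3.05, 3.21, 3.86 and 2.93 in late spermatocyte-like cells. Casp6, an effector caspase, had 2.98 ± 0.15 CPM in round spermatid-like cells, within the range of the early spermatocyte-like libraries (4.19 ± 3.10 CPM from 16 UMIs), against 0.585 ± 0.22 CPM in elongating ones. Casp8, the death receptor caspase, had 0 to 27 UMIs in each germ-cell class, against 20.8 ± 5.75 CPM in macrophage-like cells.

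RNA of the genes of the 4 mitochondrial proteins took different courses. From spermatogonia-like to pachytene cells, Diablo was higher and Htra2 overlapped, whereas Endog and Aifm1 were lower without overlap. Diablo, whose protein blocks inhibitors of apoptosis once in the cytosol, measured 229, 291, 256 and 322 CPM in spermatogonia-like, 676, 718, 621 and 763 in early spermatocyte-like, 606, 626, 591 and 672 in pachytene and 514, 543, 483 and 551 CPM in late spermatocyte-like cells. It measured 79.3, 86.6, 70.7 and 80.8 CPM in round spermatid-like cells, with no overlap between late spermatocyte-like and round spermatid-like libraries. Htra2, a mitochondrial protease with a similar cytosolic role, measured 38.9, 25.1, 45.9 and 33.2 CPM in early spermatocyte-like cells and had a mean of 3.81 ± 0.825 CPM in elongating spermatid-like cells. Aifm1, a flavoprotein of the mitochondrial intermembrane space encoded on chromosome X, measured 59.6, 56.0, 56.3 and 107 CPM in spermatogonia-like and 7.30, 12.1, 7.49 and 6.12 CPM in early spermatocyte-like cells. In pachytene cells it had 15 UMIs among 145989330, or 0.102 ± 0.0613 CPM. Endog, a mitochondrial nuclease, had 23.2 ± 13.7 CPM in the spermatogonia-like and 1.19 ± 0.941 CPM in the early spermatocyte-like class. Leydig-like cells had an Endog mean of 37.0 CPM.

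Xiap, the inhibitor that binds caspases most directly, is likewise encoded on chromosome X and followed the course of Aifm1. It had 28.2, 33.6, 40.6 and 43.0 CPM in spermatogonia-like cells, 12.2, 13.1, 7.49 and 10.5 CPM in early spermatocyte-like cells and 10 UMIs in the whole pachytene class. In round, elongating and condensing spermatid-like cells it had 20, 2 and 1 UMIs. Leydig-like cells had a Xiap mean of 41.4 CPM. The spermatogonia-like mean was 524 times the pachytene mean for Xiap and 682 times for Aifm1. Among autosomal members the ratio ranged widely, for example 646 for Bok, 186 for Bik and 0.44 for Diablo. The part of the chromosome in these courses was not tested. The other inhibitor genes are autosomal. Birc5, which encodes survivin and also serves chromosome segregation, measured 198, 205, 225 and 219 CPM in spermatogonia-like, 264, 269, 255 and 247 in pachytene and 343, 344, 325 and 331 CPM in late spermatocyte-like cells, the highest class, and 81.7, 88.8, 71.7 and 70.1 CPM in elongating spermatid-like cells. Birc2, a ubiquitin ligase of tumour necrosis factor signalling, was highest in early spermatocyte-like cells (125, 126, 125 and 128 CPM). Birc6, a large ubiquitin-conjugating inhibitor, measured 116, 108, 119 and 136 CPM in spermatogonia-like, 82.7, 84.4, 72.1 and 62.1 in early spermatocyte-like and 20.2, 21.4, 19.8 and 19.99 CPM in pachytene cells, and its mean was lower at each step down to 2.74 ± 0.227 CPM in elongating spermatid-like cells. Birc3 had at most 10 UMIs in any germ-cell class and 27.2 ± 14.0 CPM in macrophage-like cells.

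**Figure D2:**
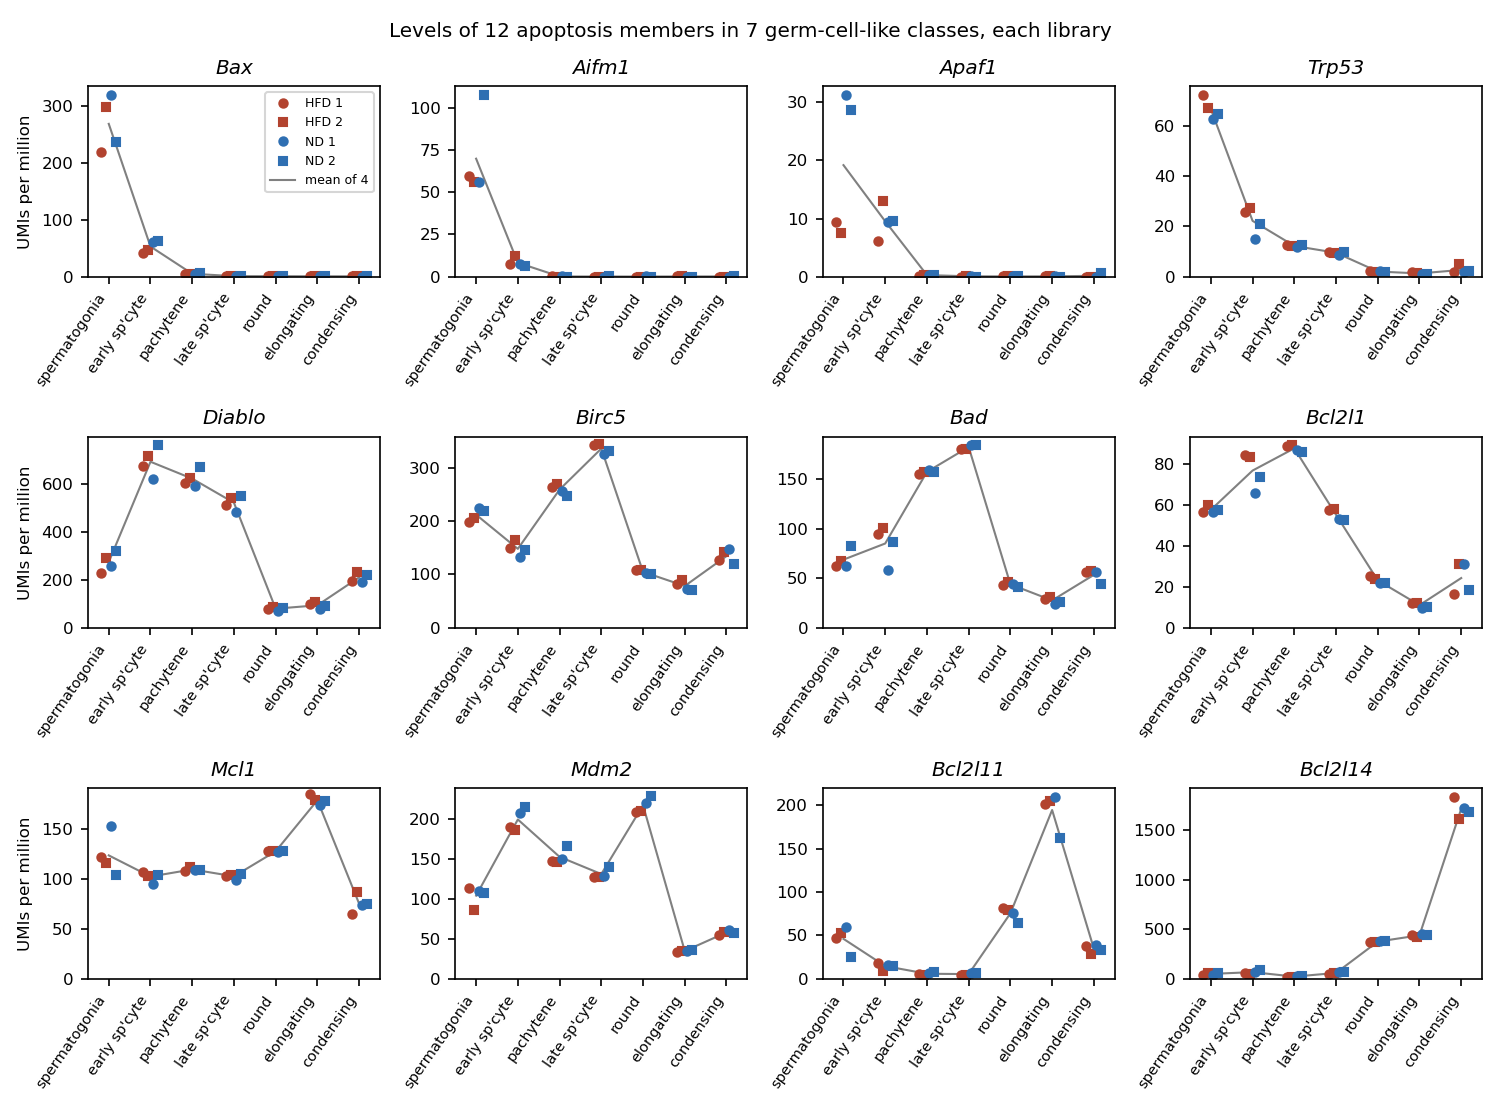
Levels (CPM, linear axes from 0) of 12 members in the 7 germ-cell classes in stage order; red points are HFD 1 (circle) and HFD 2 (square), blue points ND 1 and ND 2, and the grey line joins the means of the 4 libraries. Bax, Aifm1, Apaf1 and Trp53 start high and end near 0, Diablo, Birc5 and Bad are highest in spermatocyte-like classes, and Bcl2l11 and Bcl2l14 are highest in spermatid-like classes.

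Among the death receptor genes, the highest germ-cell class mean was 0.467 CPM for Fas, 2.32 for Tnfrsf1a, 5.51 for Cflar and 9.40 for Fadd. The somatic class means of Fadd were 2.44 to 8.90 CPM. Fas, the receptor, had 0 UMIs in the spermatogonia-like and early spermatocyte-like classes, which allows up to 2.53 and 0.745 CPM at 3 counts over the 4 libraries, and 0.467 ± 0.132 CPM in elongating spermatid-like cells. Tnfrsf1a, a receptor of tumour necrosis factor, was highest among germ cells in the early spermatocyte-like class (3.65, 2.01, 1.87 and 1.75 CPM, from 9 UMIs), against 76.3 ± 5.59 CPM in Leydig-like cells. Fadd, the adaptor, measured 8.44, 9.23, 9.97 and 8.53 CPM in pachytene cells and 3.04, 3.20, 2.67 and 2.74 CPM in round spermatid-like cells. Cflar, which encodes the caspase-8 decoy FLIP, measured 5.45, 5.11, 6.18 and 5.28 CPM in pachytene cells and had 49.7 ± 12.1 CPM in Leydig-like cells.

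Of the p53 group, Trp53 was lower at later stages while Mdm2 was high again in round spermatids. Trp53 measured 72.2, 67.2, 62.5 and 64.5 CPM in spermatogonia-like, 25.5, 27.1, 14.98 and 20.99 in early spermatocyte-like, 12.5, 12.1, 11.8 and 12.4 in pachytene and 2.21, 1.87, 2.07 and 2.01 CPM in round spermatid-like cells. Mdm2, which encodes the ubiquitin ligase that degrades p53, was at 189.8, 186, 207 and 214 CPM in early spermatocyte-like cells and 209, 210.4, 219.6 and 229 CPM in round spermatid-like cells, and these 2 classes overlapped. It stood 6.28 times lower in elongating spermatid-like cells, at 33.0, 34.1, 34.7 and 36.4 CPM. Cdkn1a, which encodes the cell cycle inhibitor p21, was highest in elongating spermatid-like cells (10.8, 8.72, 12.8 and 10.8 CPM) and measured 2.13, 1.65, 1.38 and 2.10 CPM in round ones. Its spermatogonia-like value came from 11 UMIs and overlapped the elongating range.

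The diets were compared within each class on UMI counts summed per library, with edgeR's quasi-likelihood test and Benjamini-Hochberg adjustment over all genes tested in the class. A gene is called where its adjusted p is below 0.05, and changes are log2 ratios of HFD to ND. The spermatogonia-like class was not tested, because HFD 1 had 48 of its cells and 50 were required, and its levels above are a description. In the other 11 classes, 35 members passed the filter on low counts in at least 1 class, which made 206 gene-by-class tests, and 7 were called, all in germ cells. Bcl2l10 and Bmf were tested in no class. The late spermatocyte-like class had 4 calls among 25 tested members, where 12.3% of all tested genes were called. The elongating spermatid-like class had 2 among 19 (5.97% of all genes), and the pachytene class 1 among 27 (3.79%). With 1 to 4 calls a class, these shares of members were near those of all genes. Normalized levels of the diets lay apart for 53.7% of all tested genes in late spermatocyte-like, 49.4% in pachytene and 48.6% in elongating spermatid-like cells. A lack of overlap, given below for called members, was thus common among all genes.

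No member was called in the other 8 classes. In round spermatid-like cells 0 of 23 tested members were called by edgeR, with 4 below an unadjusted p of 0.05, where 0.497% of all genes were called. The counts were 0 of 17 members (3 unadjusted) in early spermatocyte-like and 0 of 12 (0 unadjusted) in condensing spermatid-like cells, classes in which 0% of all genes were called. In the somatic classes the counts were 0 of 27 members (2 unadjusted) in Leydig-like cells (0.912% of all genes called), 0 of 21 (2) in Sertoli-like (0.0977%), 0 of 13 (0) in macrophage-like (1.72%), 0 of 12 (1) in lymphocyte-like (0.119%) and 0 of 10 (0) in fibroblast-like cells (0%). The unadjusted edgeR counts over all genes were 2846 of 18932 in round spermatid-like, 699 of 9476 in early spermatocyte-like and 462 of 8487 in condensing cells. They were 2188 of 12275 in Leydig-like, 809 of 10233 in Sertoli-like and 490 of 5642 in macrophage-like cells. In lymphocyte-like and fibroblast-like cells they were 263 of 5058 and 513 of 5491. DESeq2 also called no member in these 8 classes. The median log2 change of the tested members was -0.04 in pachytene, 0.03 in late spermatocyte-like, 0.05 in round and 0.20 in elongating spermatid-like cells, and between -0.08 (lymphocyte-like, 12 tested) and 0.22 (fibroblast-like, 10 tested) in the other 7 classes, with 0.08 in early spermatocyte-like cells. The medians over all tested genes lay between -0.01 and 0.00 in every one of the 11 classes.

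**Figure D3:**
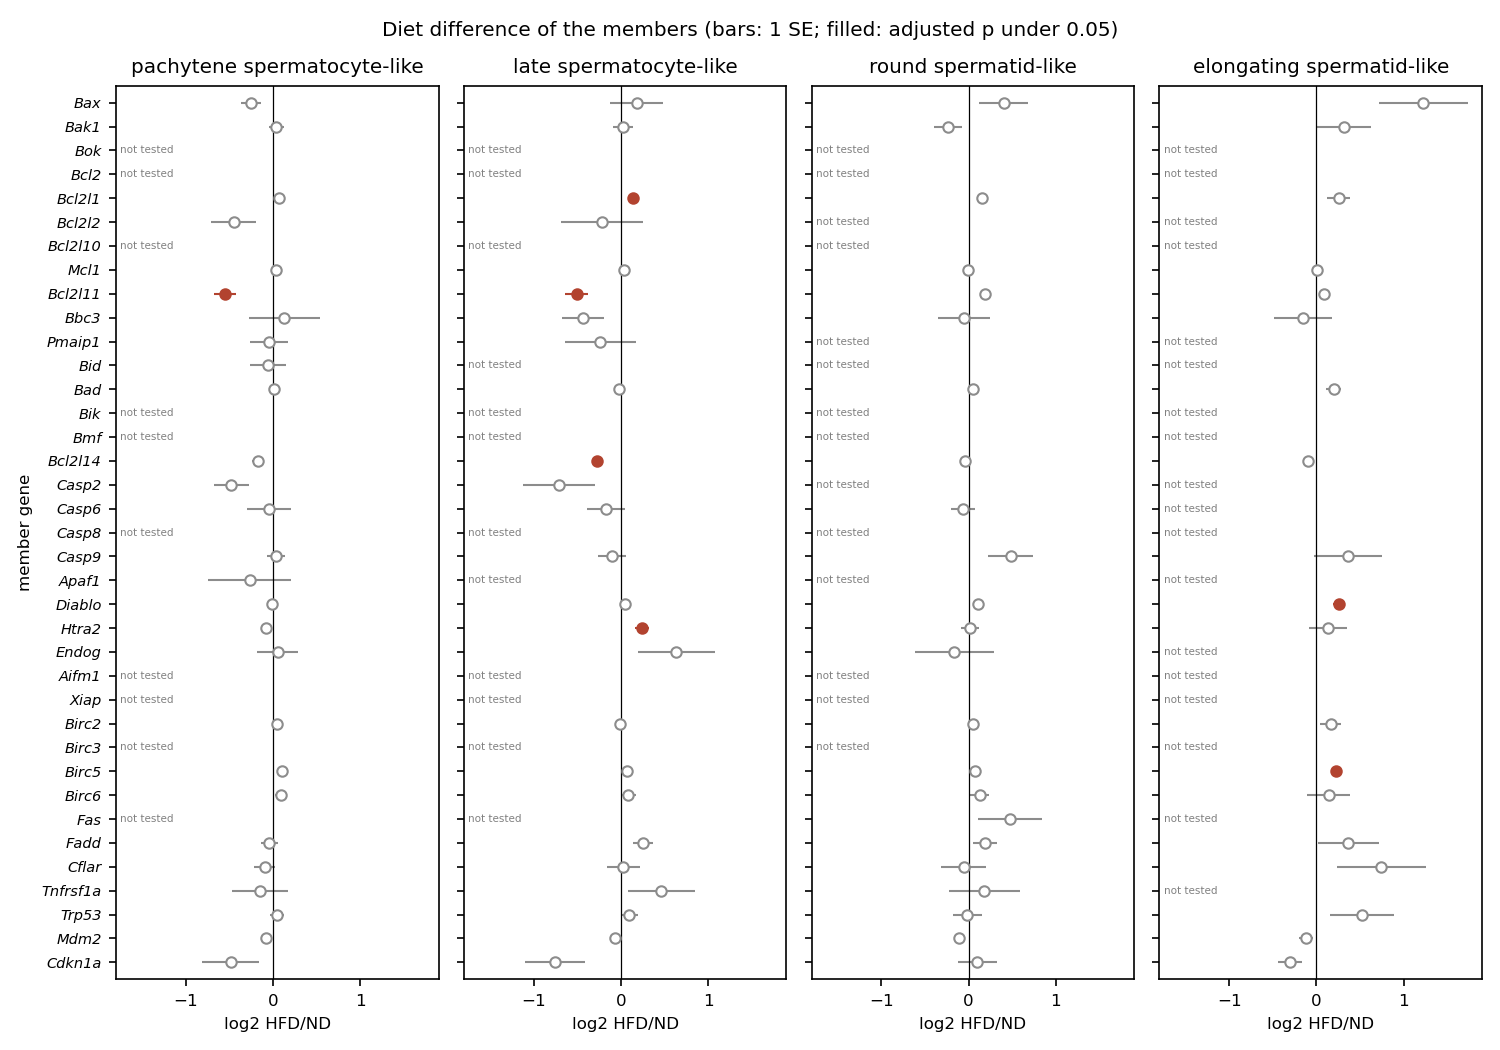
Log2 ratio of HFD to ND (horizontal axis) for each member tested in the pachytene, late spermatocyte-like, round spermatid-like and elongating spermatid-like classes; bars are 1 SE and filled red points have an adjusted p below 0.05. The 7 filled points are Bcl2l11 in the first 2 panels, Bcl2l1, Bcl2l14 and Htra2 in the second, and Diablo and Birc5 in the fourth; the third panel has none.

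Bcl2l11 (chromosome 2, 128126038 to 128162547, plus strand) fell with the high-fat diet in the 2 classes where its level was lowest. In pachytene cells it measured 4.88 and 4.27 CPM in HFD 1 and HFD 2 and 5.99 and 7.57 CPM in ND 1 and ND 2, from 199, 177, 188 and 245 UMIs. Both HFD libraries lay below both ND libraries, and the change was -0.55 ± 0.129 (SE), adjusted p = 0.0252. In late spermatocyte-like cells the values were 4.78 and 3.86 CPM in HFD 1 and HFD 2 and 6.32 and 6.09 CPM in ND 1 and ND 2, again without overlap, and the change was -0.51 ± 0.129 (SE), adjusted p = 0.00951. The pachytene call was lost without HFD 2 (-0.45, adjusted p = 0.0955) and without ND 2 (-0.37, adjusted p = 0.127), and the late call without HFD 2 (-0.36, adjusted p = 0.201). By edgeR the pachytene call was also lost with no filter on low counts (-0.54, adjusted p = 0.186). The late call was also lost at Leiden resolution 2 (-0.41, adjusted p = 0.374), with all variable genes (-0.58, adjusted p = 0.0773) and with another random seed (-0.42, adjusted p = 0.186). In round and elongating spermatid-like cells, where Bcl2l11 was abundant, its log2 changes were 0.19 and 0.08 and neither was called.

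Bcl2l14 fell in late spermatocyte-like cells with the smallest adjusted p of any member. It measured 51.1 and 52.7 CPM in HFD 1 and HFD 2 and 63.5 and 63.1 CPM in ND 1 and ND 2, and the HFD libraries lay below the ND libraries. The change was -0.28 ± 0.0468 (SE), adjusted p = 0.000234, and it was also called by DESeq2. Its direction was the same without each of the 4 libraries in turn. The lack of overlap between the diets made this all but certain, so it adds no support. Such a fit has a single library for a diet, and its spread comes from the other diet's pair. At Leiden resolution 2, where the class was drawn from other clusters, the change was -0.06 (adjusted p = 0.718, edgeR) and the call was lost. In pachytene, round, elongating and condensing cells its log2 changes were -0.18, -0.04, -0.10 and -0.01, none of them called. Bcl2l14 (chromosome 6, 134396318 to 134438736, plus strand) overlaps 4933406J09Rik and Gm44448 on the other strand in GENCODE M21, and whether the counting used strand is not given in the sources used here.

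Markers of spermatids and the makeup of the late spermatocyte-like class moved with these calls. All 9 round spermatid markers were called lower with the high-fat diet in that class (summed level 556 and 546 CPM in HFD 1 and HFD 2, 665 and 652 CPM in ND 1 and ND 2), and 5 of 7 elongating spermatid markers were called lower. Called lower as well were 2 of 7 condensing spermatid, 2 of 6 tested Leydig, 1 of 4 tested Sertoli and 1 of 3 tested peritubular markers. In the other direction, 2 of 6 tested early, 4 of 8 pachytene and 2 of 8 late spermatocyte markers were called higher. In pachytene cells 4 of 9 round spermatid markers were called lower, with summed levels of 102.0 and 102.4 CPM against 116 and 144 CPM, and none was at 0. In the same class 2 of 4 tested Sertoli markers were called lower (all 9 summed to 11.8 and 13.6 CPM in HFD 1 and HFD 2 and 17.0 and 19.01 CPM in ND 1 and ND 2), 1 Leydig marker was called lower and 3 of 8 late spermatocyte markers were called higher. Bcl2l11 had class means of 77.7 CPM in Sertoli-like, 75.4 CPM in round and 195 CPM in elongating spermatid-like cells. Sertoli-like cells also carried 72100 to 86755 CPM of elongating spermatid markers. The part of RNA from any of these cells in the pachytene call was not tested. Among the pachytene clusters, cluster 2 gave 65.7% and 64.6% of UMIs in HFD 1 and HFD 2 and 61.3% and 61.1% in ND 1 and ND 2, and cluster 3.1 gave 8.94% and 10.7% against 12.2% and 14.2%. The late class consisted of 3 clusters, and cluster 16 gave 64.9% and 67.2% of its UMIs in HFD 1 and HFD 2 but 53.9% and 57.3% in ND 1 and ND 2. Bcl2l14 differed between these clusters, at 14.8 CPM in cluster 16, 58.0 in cluster 19 and 163 in cluster 21. Within cluster 21 the libraries measured 155, 172, 161 and 164 CPM in the usual order, so the diets overlapped, while in cluster 16 they measured 13.7, 13.2, 16.2 and 16.1 CPM. Bcl2l11 was lower in both HFD libraries than in both ND libraries in each of the 3 clusters, for example 3.72, 2.73, 4.42 and 5.06 CPM in cluster 16. Over the whole class, 53.7% of all tested genes also had no overlap between the diets, and the share within single clusters was not counted. With the mix of clusters held fixed (limma on log2 CPM + 1), the late changes were -0.16 for Bcl2l14 (adjusted p = 0.312) and -0.34 for Bcl2l11 (adjusted p = 0.343), and the pachytene change of Bcl2l11 was -0.44 (adjusted p = 0.142). This fit gave each cluster equal weight, and its pseudocount reduces changes of genes at a few CPM. The sizes for Bcl2l11 are therefore not directly comparable with those by edgeR.

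**Figure D4:**
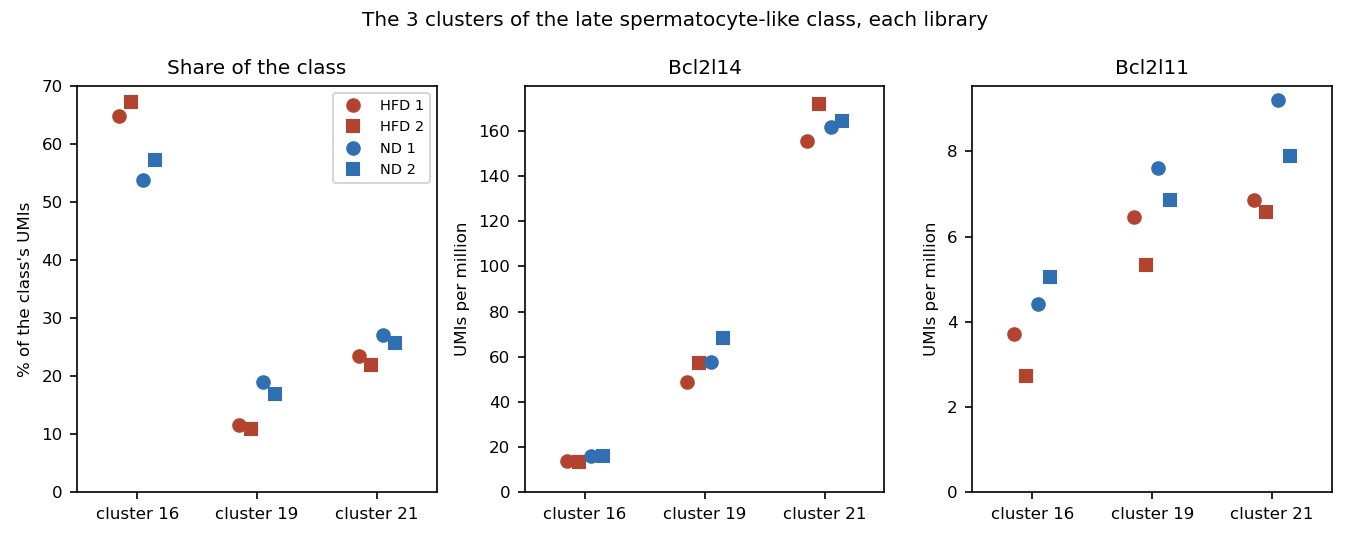
The 3 clusters of the late spermatocyte-like class (horizontal axis) by library: their share of the class's UMIs (left, %), Bcl2l14 (middle) and Bcl2l11 (right), both in CPM; red is HFD, blue ND, circles replicate 1 and squares replicate 2. Cluster 16 holds 64.9% and 67.2% of UMIs in the HFD libraries against 53.9% and 57.3% in the ND libraries, Bcl2l14 overlaps between diets in cluster 21, and Bcl2l11 does not overlap in any of the 3.

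A survival gene and a mitochondrial protease gene rose with the high-fat diet in late spermatocyte-like cells. Bcl2l1 (chromosome 2, 152780668 to 152831728, minus strand) measured 57.3 and 57.8 CPM in HFD 1 and HFD 2 and 52.8 and 52.3 CPM in ND 1 and ND 2, without overlap, and changed by 0.14 ± 0.0472 (SE), adjusted p = 0.0474. Htra2 (chromosome 6, 83051266 to 83055273, minus strand) measured 17.0 and 16.03 CPM in HFD 1 and HFD 2 and 14.6 and 13.6 CPM in ND 1 and ND 2, also without overlap, and changed by 0.24 ± 0.0785 (SE), adjusted p = 0.0429. Both calls were lost with DESeq2 (adjusted p = 0.224 for Bcl2l1 and 0.252 for Htra2) and without HFD 1, HFD 2 or ND 2 in turn (adjusted p from 0.0843 to 0.358). The changes themselves were 0.14 and 0.24 with DESeq2, and without those libraries 0.14 to 0.15 for Bcl2l1 and 0.19 to 0.28 for Htra2. Of 17 alternatives, 4 called Bcl2l1 and 5 called Htra2. At Leiden resolution 2 the changes were 0.07 and 0.06 (edgeR adjusted p = 0.749 and 0.892), and with the mix of clusters held fixed 0.10 and 0.14 (limma adjusted p = 0.551 and 0.583). In the same class 4 of 8 pachytene markers were called higher, with summed levels of 4264 and 4278 CPM in HFD 1 and HFD 2 and 4117 and 4248 CPM in ND 1 and ND 2. Both genes had higher means in pachytene cells, Bcl2l1 with 87.4 against 55.1 CPM and Htra2 with 23.5 against 15.3 CPM, and the part of pachytene RNA in these calls was not tested. Htra2 overlaps Aup1 and Loxl3 on the other strand.

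In elongating spermatid-like cells the 2 calls were both increases, of Diablo and of the inhibitor gene Birc5, whose proteins act in opposite directions on caspases. Diablo (chromosome 5, 123509765 to 123524176, minus strand) measured 97.5 and 109 CPM in HFD 1 and HFD 2 and 77.3 and 90.8 CPM in ND 1 and ND 2 and changed by 0.25 ± 0.0617 (SE), adjusted p = 0.0046. Birc5 (chromosome 11, 117849251 to 117855743, plus strand) measured 81.7 and 88.8 CPM in HFD 1 and HFD 2 and 71.7 and 70.1 CPM in ND 1 and ND 2 and changed by 0.22 ± 0.0613 (SE), adjusted p = 0.0145. The HFD libraries were above the ND libraries for both genes. Diablo was not called without HFD 2 (0.19, adjusted p = 0.299) or without ND 1 (0.13, adjusted p = 0.221), and Birc5 not without HFD 1 (0.28, adjusted p = 0.0651) or HFD 2 (0.18, adjusted p = 0.367). Both calls were also lost with DESeq2 (adjusted p = 0.097 for Diablo and 0.118 for Birc5), with doublets kept (edgeR adjusted p = 0.213 and 0.302) and with the mix of clusters held fixed (limma adjusted p = 0.368 and 0.125), and that of Birc5 without shallow clusters (0.20, edgeR adjusted p = 0.0569). The changes of Diablo and Birc5 were 0.25 and 0.22 with DESeq2, 0.20 and 0.17 with doublets kept, and 0.20 and 0.36 with the fixed mix, where that of Birc5 was larger than reported. Stage markers also differed between the diets in this class, in both directions: 4 of 8 pachytene and 4 of 8 late spermatocyte markers were called higher, with summed late markers of 357 and 360.4 CPM in HFD 1 and HFD 2 and 275 and 302 CPM in ND 1 and ND 2. Of the round spermatid markers 0 were called higher and 1 lower by edgeR (median log2 change -0.12), of the spermatogonia markers 0 and 1 (-0.09), and of the 7 elongating spermatid markers 0 and 2 (-0.09). Cluster 8 gave 49.1% and 51.2% of the class's UMIs in HFD 1 and HFD 2 and 56.4% and 52.99% in ND 1 and ND 2. Diablo and Birc5 are themselves 5.58 and 4.30 times higher in late spermatocyte-like than in elongating spermatid-like cells, and the part of those stages in the calls was not tested. Diablo overlaps Gm49027 and Mir7647 on its own strand.

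**Figure D5:**
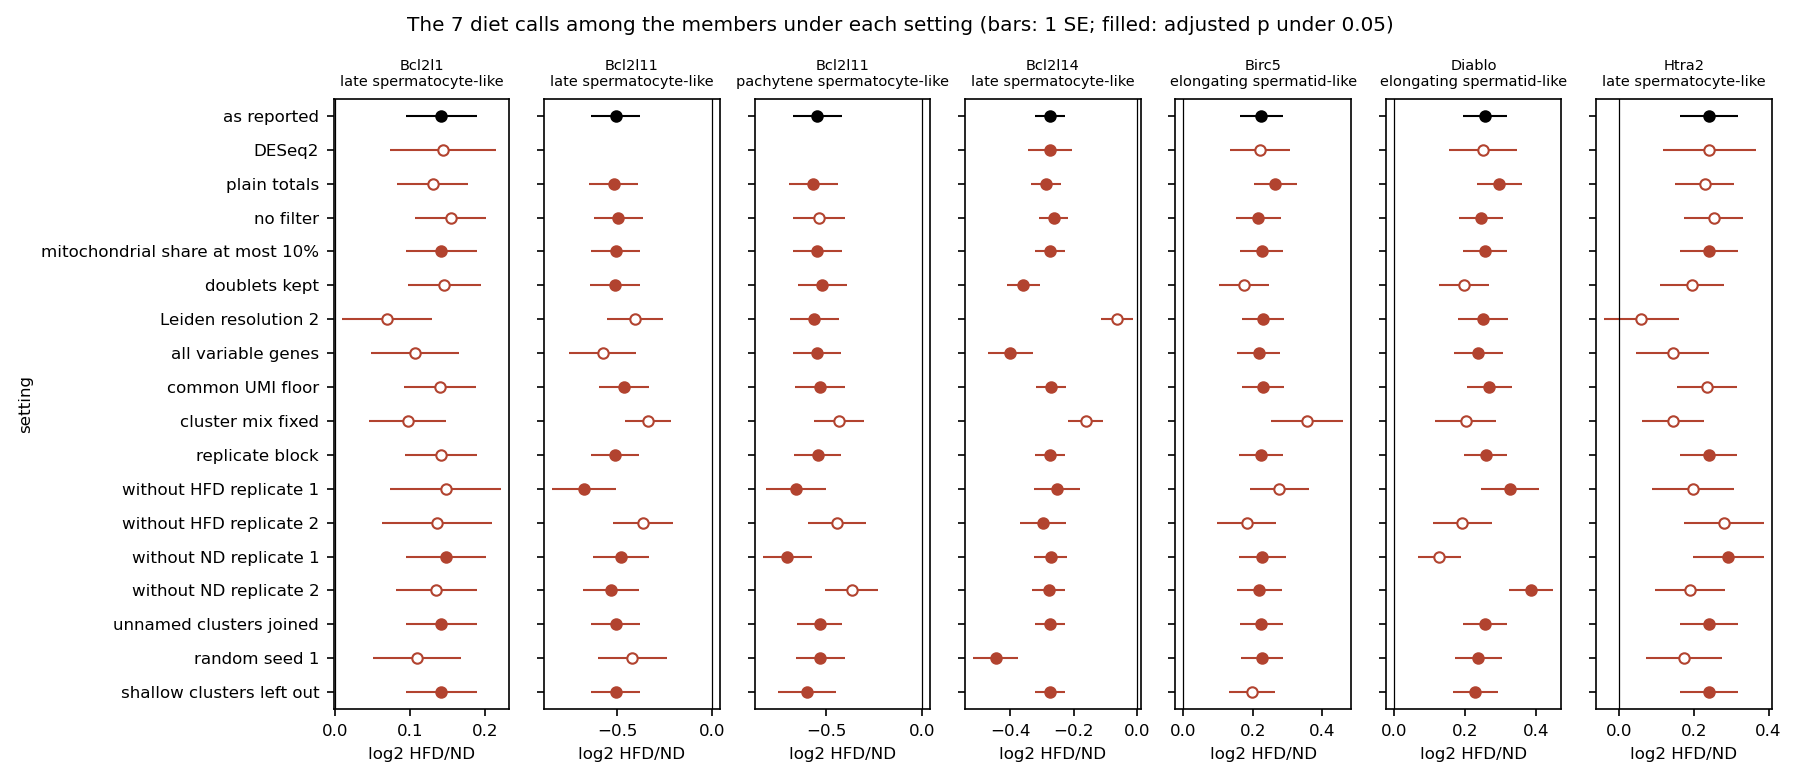
Log2 ratio of HFD to ND (horizontal axes, each with its own scale) of the 7 called gene and class pairs under the reported setting (black) and 17 others (red), with 1 SE; filled points have an adjusted p below 0.05. All points keep the direction of the reported value, which was all but certain with a library left out because the diets did not overlap. With the mix of clusters held fixed none is filled. DESeq2 has no point for Bcl2l11 because it gave no adjusted p.

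Whether a diet effect differed between neighbouring germ-cell classes was tested as an interaction with library as a term, over 5 pairs of classes. For Bcl2l11, the effect in round spermatid-like cells minus that in late spermatocyte-like cells was 0.68 ± 0.125 (SE, log2; edgeR adjusted p = 0.000508). The own-class changes were -0.51 in the late and 0.19 in the round class. For Bcl2l14 the same difference was 0.22 ± 0.0392 (SE, edgeR adjusted p = 0.00042). These were the 2 called members of this pair, in which 4.22% of all tested genes were called. Htra2 differed between late spermatocyte-like and pachytene cells by 0.32 ± 0.0792 (SE, edgeR adjusted p = 0.0331), the single called member where 2.53% of all genes were called. Between round and elongating spermatid-like cells no member was called (4.54% of all genes), and in the other 2 pairs no gene was called (0%). With the 2 sums of a library treated as independent, no member was called in any pair, and the adjusted p was 0.0777 for Bcl2l11, 0.0638 for Bcl2l14 and 0.192 for Htra2. The interaction was fitted on the reported classes only. At Leiden resolution 2 the own-class late changes of Bcl2l11, Bcl2l14 and Htra2 were -0.41, -0.06 and 0.06. The part of the late class's makeup in these differences was not tested.

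A further list of 64 apoptosis and p53 pathway genes was read in the same fits. In late spermatocyte-like cells 46 were tested, of which 3 rose and 4 fell, a share of 15.2% beside 12.3% of all tested genes. Those that rose were Cradd, an adaptor of caspase-2 (0.37), Parp1, a DNA repair enzyme cleaved by caspases (0.19), and Atr, a DNA damage kinase (0.15). The largest decreases were in Gsdmd, a pore-forming gasdermin (-1.62), Cycs, the somatic cytochrome c (-0.53), and Chek1, a checkpoint kinase (-0.39). In elongating spermatid-like cells 4 of 40 rose and 1 fell (12.5%, beside 5.97% of all genes): Atr (0.54), Parp1 (0.46) and Cyct, the testis cytochrome c (0.22), led the increases, and Gsdma, another gasdermin, fell by 0.60 on the log2 scale. In pachytene cells 2 of 46 rose, Zmat3 (0.27) and Pdcd4 (0.15), and 1 fell, the p53 target Perp (-1.30), together 6.52% beside 3.79% of all genes. Nothing particular to the list is read from these shares. No gene of the list was called by edgeR in the other 8 classes, where 0 to 5 a class were below an unadjusted p of 0.05. The unadjusted counts of all genes in these classes are given above. DESeq2 called no gene of the list in any class.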

How the data were processed

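The authors deposited, for each of the 4 libraries, a sparse matrix of whole-number UMI counts, with genes as rows, barcodes as columns and no normalization, per the file headers and the values, made from 10x 3' version 3 libraries per the labels' protocols. The build was mm10, per the submitters' processing notes, and the aligner and counting settings are not given in the sources used here. All 55450 gene identifiers matched GENCODE M21 (GRCm38), from which coordinates were taken. A second table of each library was not used here.

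Barcodes were dropped when they had under 200 detected genes or a mitochondrial share above 20% of UMIs. Scrublet (scanpy 1.11.5, expected rate 0.1) called 421, 853, 781 and 756 doublets in HFD 1, HFD 2, ND 1 and ND 2, which were left out. Cells were clustered on 2000 variable genes without the members and the pathway list, with 30 principal components, 15 neighbours and Leiden resolution 1, and clusters with more markers of another class among their top 10 genes were clustered again (resolution 0.5). A cluster took the class with the highest mean marker score. It stayed unnamed with fewer than 3 detected markers, a score below 0.5, more markers of another class among its top 10 genes, a class outside the 2 best of the cluster it was split from, or low depth without own markers there. No cluster was named endothelial-like or peritubular-like; a cluster of 43 cells with its highest score for endothelial markers stayed unnamed. The smallest UMI total of a deposited barcode was 1141 to 1638 per library.

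Counts were summed per class and library, for classes with at least 50 cells in every library, and tested with edgeR 4.0.16 (filterByExpr, TMM, quasi-likelihood test) in R 4.3.3. Values printed as CPM use plain totals. Interaction fits had library and class as terms. Alternatives were DESeq2 1.42.0, plain totals, no filter, 10% mitochondrial UMIs, doublets kept, resolution 2, all variable genes, a common UMI floor, a fixed mix of clusters with limma 3.58.1 on log2 CPM with a pseudocount of 1, a replicate block and each library left out. Joining clusters of unclear stage, another random seed and leaving out shallow clusters were added after the data were seen. With a library left out, its diet has a single library, and the spread comes from the other diet's pair. The functions were tested on simulated data. The members, gene lists and marker lists were chosen with earlier results of these data known. All members are accounted for, and those given with every library are the called ones and, per role, up to 3 with the highest level in a germ-cell class; further values were chosen after they were seen. Pathway genes are named by size of change, up to 3 a direction. The precision of a level is set by its UMIs, and counting limits cover counting error only.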

Additional observations from a re-analysis of the deposited data

Results flagged for a closer look

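The diet effect on 3 members differed between neighbouring germ-cell classes by the interaction test with library as a term. For Bcl2l11 the effect in round spermatid-like cells minus that in late spermatocyte-like cells was 0.68 on the log2 scale (edgeR adjusted p = 0.000508), and for Bcl2l14 it was 0.22 (edgeR adjusted p = 0.00042). For Htra2 the effect in late spermatocyte-like cells minus that in pachytene cells was 0.32 (edgeR adjusted p = 0.0331). None of the 3 was called when the sums of a library were treated as independent. Late-class changes also moved with the clustering: at Leiden resolution 2 they were -0.41 for Bcl2l11, -0.06 for Bcl2l14 and 0.06 for Htra2. Cluster shares of that class differed between the diets, and their part in these differences was not tested.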

How the results depend on the processing

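None of the 7 member calls changed direction under the 17 alternatives. For the fits with a library left out this was all but certain, because the diets did not overlap for any of the 7. Of 117 values with an adjusted p, 70 were called and 47 were not. Against 7 members called over 11 classes, DESeq2 called 1, Leiden resolution 2 gave 4 and the fixed mix of clusters 0 (over 7 classes). For all genes (3988 called) these settings gave 1147, 1879 and 337, and no filter gave 2466; for the pathway list (15 called) they gave 0, 5 and 1, and no filter 6. Leaving out each library gave 4 to 14 members, 2135 to 7976 genes and 5 to 19 pathway genes, lowest without HFD 1 and highest without ND 1.

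By class, pachytene cells (1 member called) had 0 with DESeq2, no filter and the fixed mix, 2 with unclear clusters joined, and 0 to 4 with a library left out (0 without HFD 2 or ND 2, 4 without ND 1). Late spermatocyte-like cells (4 called) had 1 with DESeq2, all variable genes and random seed 1, 2 with plain totals, no filter, doublets kept and the UMI floor, 0 at resolution 2 and with the fixed mix, and 1 to 5 with a library left out (1 without HFD 2, 2 without HFD 1). Elongating spermatid-like cells (2 called) had 0 with DESeq2, doublets kept and the fixed mix, 1 without shallow clusters, and 0 to 2 with a library left out (0 without HFD 2, 1 without HFD 1). Classes with 0 calls gained a few: round spermatid-like cells 1 with all variable genes and with the replicate block and 0 to 3 with a library left out (3 without ND 1, 1 without ND 2), early spermatocyte-like cells 1 at resolution 2 and without shallow clusters, and Leydig-like cells 1 with no filter, the UMI floor and without shallow clusters, 3 with doublets kept and 0 to 4 with a library left out (4 without HFD 2). The interaction gave 3 members, and 0 with the sums treated as independent. The cause of these differences was not tested.

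Genes called over all genes ranged from 31 (resolution 2) to 2401 (without ND 1) in late spermatocyte-like cells, from 68 (no filter) to 2488 (without ND 1) in pachytene cells, from 14 (no filter) to 1795 (without ND 1) in round and from 53 (fixed mix) to 1069 (without ND 1) in elongating spermatid-like cells, against 2116, 672, 94 and 881 as reported. In Leydig-like cells (112) they ranged from 2 (fixed mix) to 3033 (without HFD 2). Classes with 0 reached 161 (early spermatocyte-like, resolution 2), 591 (condensing spermatid-like, unclear clusters joined) and 145 (fibroblast-like, without HFD 1). Sertoli-like cells (10) ranged from 0 with DESeq2 to 40 with 10% mitochondrial UMIs, lymphocyte-like (6) from 1 with DESeq2 to 28 with random seed 1, and macrophage-like (97) from 22 with DESeq2 to 105 with no filter.

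Deviations of same-numbered libraries correlated at -0.13 in Leydig-like and 0.14 in fibroblast-like cells and between -0.06 and 0.03 elsewhere. These low correlations cannot settle whether the replicate numbers of the labels pair the libraries. With the replicate block, 7 members, 4537 genes and 14 pathway genes were called; Bcl2l1 lost its call (adjusted p = 0.0637). All variable genes left 10 classes to compare, and leaving out shallow clusters 7. Depth limited the tests: of 154 pairs of a member and a tested class with under 20 UMIs over the 4 libraries, 0 were tested, and of 66 pairs with 20 to 49 UMIs, 19 were.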

Other observations

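The somatic classes differed from each other in which members they carried. Sertoli-like cells had the highest class mean of Bik, 116, 87.1, 99.2 and 104 CPM in HFD 1, HFD 2, ND 1 and ND 2, against 0.212 CPM in Leydig-like cells, and of the effector caspase gene Casp6, 56.1, 45.8, 39.2 and 40.5 CPM. Macrophage-like cells had the highest Mcl1, 301, 361, 369 and 435 CPM, and the highest Cdkn1a, 54.5, 88.4, 101 and 84.8 CPM. Lymphocyte-like cells had the highest Bcl2, 77.0, 88.6, 36.4 and 66.8 CPM. Leydig-like cells had the highest Tnfrsf1a, 69.4, 74.2, 81.7 and 79.7 CPM, and 41.9, 58.6, 60.7 and 44.1 CPM of the X-linked Aifm1, against 0.102 CPM in pachytene cells. These are levels over all libraries, with no test between classes.

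In Leydig-like cells Birc5 measured 138, 89.1, 55.8 and 72.1 CPM in HFD 1, HFD 2, ND 1 and ND 2 (log2 change 0.80 ± 0.21 (SE), adjusted p = 0.0643, edgeR), which missed the threshold. The caspase-8 decoy gene Cflar measured 36.1, 43.0, 62.0 and 57.7 CPM (log2 change -0.64 ± 0.21 (SE), adjusted p = 0.119, edgeR). The Leydig-like class joined a deep and a shallow cluster, and the deep one gave 1540901 of 2075515 UMIs in HFD 1, 1461858 of 1604257 in HFD 2, 2115041 of 2275267 in ND 1 and 2142399 of 2358471 in ND 2. The share from the shallow cluster was thus largest in HFD 1. With shallow clusters left out, 1 member was called in this class by edgeR, against 0 as reported. The part of the shallow cluster in the Birc5 values was not tested. Germ-cell and Leydig markers differed between the diets in the same class. The summed level of 8 late spermatocyte markers was 798 and 483 CPM in HFD 1 and HFD 2 and 381 and 411 CPM in ND 1 and ND 2, none at 0, with 1 of the 7 tested called higher and a median log2 change of 0.68. The 8 pachytene markers had a median of 0.53, with 0 called by edgeR. The 7 Leydig markers summed to 12425 and 14966 CPM in HFD 1 and HFD 2 and 19850.4 and 16163 CPM in ND 1 and ND 2, with 1 called lower and a median of -0.44. Birc5 was highest in late spermatocyte-like cells (336 CPM), and the part of these markers' cells in either value was not tested.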
